A study of Mus musculus with 9 samples.

Results

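The genes described here carry out or feed DNA replication: they license and fire origins, unwind and copy DNA, clamp and join the new strands, coat single-stranded DNA and make or guard deoxynucleotides. The 39 genes were chosen by name from 25361 genes in a table of counts. All 39 were in the table with at least 30 counts over the 9 libraries, and 38 passed the filter on low counts and were tested among 9009 genes. The one left out was Orc1, a subunit of the origin recognition complex, with 34 counts in all. Its counts were 0, 8 and 0 in aged restricted mice, 0, 3 and 11 in aged ad libitum mice and 0, 10 and 2 in young ad libitum mice. With no filter on low counts, its log2 fold change was 0.78 for aged over young ad libitum mice (95% interval −2.44 to 4.01), −1.55 for aged restricted over aged ad libitum mice (−4.89 to 1.79) and −0.77 for aged restricted over young mice (−4.13 to 2.60), with adjusted p-values of 0.960, 0.776 and 0.938 in edgeR, and each interval reached past 2-fold both ways.

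The libraries came from MC38 tumours, a mouse colon carcinoma line injected under the skin of wild-type male C57BL/6N mice, and the tumours were taken at day 21. Cells were recovered from digested tumours with beads against CD8a. The 9 libraries form 3 groups of 3. Aged restricted mice were 20 months old and received 70% of what freely fed mice ate, aged ad libitum mice were also 20 months old but ate freely, and young ad libitum mice ate freely and were 5 months old. The labels call the replicates biological and do not say whether a library pools several mice. The aged ad libitum libraries serve in both the age and the restriction comparison, so these 2 comparisons are not independent.

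In each S phase, the origin recognition complex, Cdc6 and Cdt1 load the ring of Mcm2 to Mcm7 onto origins, and Cdc45 and GINS join the ring to form the active helicase. Polymerase alpha with primase starts each stretch, polymerases delta and epsilon extend it, PCNA holds them on DNA after the RFC loader has placed it, and Fen1 and Lig1 trim and seal the lagging strand. Ribonucleotide reductase, thymidylate synthase, thymidine kinase and dUTPase set the supply of thymidine and the other deoxynucleotides. Many of these genes are known targets of E2F factors, and their transcripts are abundant in dividing cells such as T cells after activation and tumour cells.

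Promoter sequences are shown for the gene with the smallest p-value in each of the 3 comparisons, Cdt1, Mcm5 and Rpa3, and for Mcm6, the gene with the most E2F matches. They are RefSeq windows on GRCm38.p6 from 250 bases before to 50 bases after the annotated start, on the strand of the gene. Capitals mark matches to the E2F letters TTTCCCGC, TTTGGCGC, TTTCGCGC or TTTGCCGC on either strand, and overlapping matches run together. Cdt1 lies at chr8:122567765-122568064 on the plus strand, Mcm5 at chr8:75109259-75109558 on the plus strand, Mcm6 at chr1:128359656-128359955 on the minus strand and Rpa3 at chr6:8259092-8259391 on the minus strand.
Cdt1: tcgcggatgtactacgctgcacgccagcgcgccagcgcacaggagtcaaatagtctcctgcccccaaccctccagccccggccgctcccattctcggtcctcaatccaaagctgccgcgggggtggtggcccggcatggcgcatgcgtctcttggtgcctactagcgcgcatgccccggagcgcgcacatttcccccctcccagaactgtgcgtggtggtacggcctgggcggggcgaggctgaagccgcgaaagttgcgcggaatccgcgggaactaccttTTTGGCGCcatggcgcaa
Mcm5: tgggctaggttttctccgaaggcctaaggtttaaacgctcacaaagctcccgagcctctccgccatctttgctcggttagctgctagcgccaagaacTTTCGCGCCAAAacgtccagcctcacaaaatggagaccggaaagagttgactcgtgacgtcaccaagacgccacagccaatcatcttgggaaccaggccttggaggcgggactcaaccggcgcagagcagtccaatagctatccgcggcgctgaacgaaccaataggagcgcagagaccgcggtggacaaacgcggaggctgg
Mcm6: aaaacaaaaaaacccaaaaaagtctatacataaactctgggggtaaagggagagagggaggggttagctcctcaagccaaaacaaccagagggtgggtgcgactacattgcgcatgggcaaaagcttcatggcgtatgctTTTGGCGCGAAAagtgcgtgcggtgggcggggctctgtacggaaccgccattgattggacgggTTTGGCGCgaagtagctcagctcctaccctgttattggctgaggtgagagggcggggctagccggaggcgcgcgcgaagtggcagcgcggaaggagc
Rpa3: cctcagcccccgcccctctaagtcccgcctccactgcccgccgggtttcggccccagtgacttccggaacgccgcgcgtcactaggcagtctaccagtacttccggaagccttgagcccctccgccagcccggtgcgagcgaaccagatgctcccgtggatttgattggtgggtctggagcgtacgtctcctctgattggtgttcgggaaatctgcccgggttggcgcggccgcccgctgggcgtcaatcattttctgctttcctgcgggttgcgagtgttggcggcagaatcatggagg

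Of the 39 genes, 33 had a RefSeq window, and with alternative starts there were 39 windows. Of these 39 windows, 13 held an E2F match (33.3%), each in a different gene, against 744 of 32851 windows of the same length over all genes (2.26%). The 13 genes were Cdc6, Cdt1, Orc1, Mcm3, Mcm5, Mcm6, Mcm7, Gins3, Pola1, Pold1, Rfc3, Lig1 and Uhrf1. The Mcm6 window held 3 matches, those of Mcm3, Mcm5, Mcm7 and Rfc3 held 2, and the Rpa3 window held 0. The letters CCAAT, on either strand, were in 25 of the 39 windows (64.1%), against 37.4% of all windows. The letters TTTGAA, the core of the cell cycle homology region found at genes of mitosis, were in 5 (12.8%), against 17.9% of all windows. A match of letters is a description of the sequence and not a bound site.

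**Figure D1:**
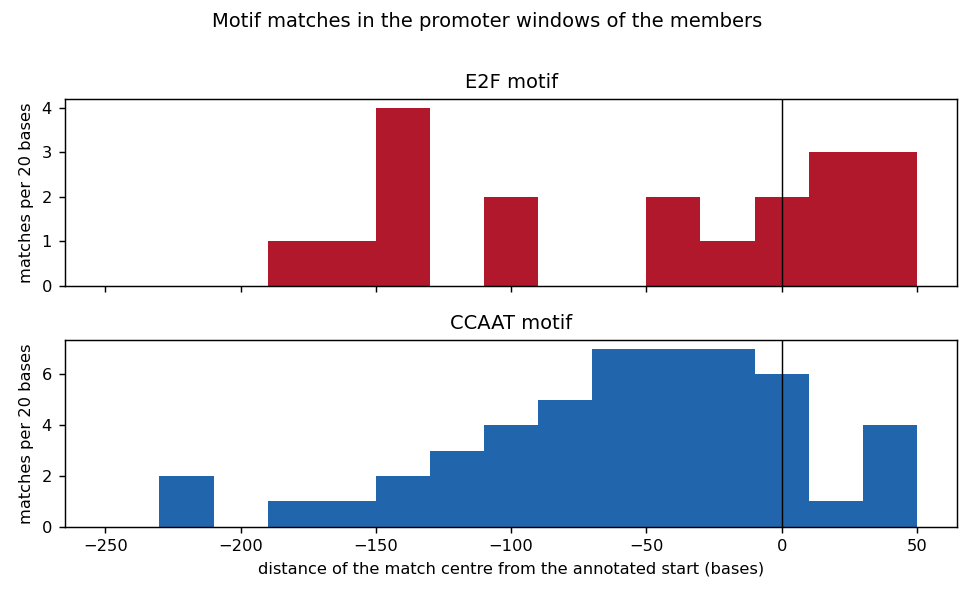
Positions of the E2F matches (upper histogram, 19 matches) and the CCAAT matches (lower histogram, 50 matches) in the 39 promoter windows. The horizontal axis is the distance of the centre of a match from the annotated start in bases and the vertical axis is the number of matches per 20 bases. Of the E2F matches, 7 lie after the start, while 15 CCAAT matches lie from 100 to 50 bases and 16 within 50 bases before it.

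Totals ran from 810662 to 1258575 counts per library, with the aged ad libitum libraries the shallowest, and mitochondrially encoded genes took from 23.5% to 45.7% of them. The 14 T cell identity genes summed to 616, 254 and 495 CPM (counts as a share of the library total after TMM scaling) in aged restricted mice, 455, 174 and 242 CPM in aged ad libitum mice and 304, 69.3 and 155 CPM in young ad libitum mice. The 15 macrophage genes summed to between 7283 and 12524 CPM in aged restricted mice, between 2627 and 5920 CPM in aged ad libitum mice and between 4214 and 4433 CPM in young ad libitum mice. The 10 tumour epithelium genes summed to between 0 and 18.4 CPM, with Krt18, Krt19, Cldn3 and Cdx2 at 0 counts in all 9 libraries. Low counts of these genes do not show that tumour cells were absent. The means of other marker sums also differed between the groups: 11 endothelium genes averaged 168 ± 89.6, 420 ± 164 and 102 ± 26.2 CPM (SD, n = 3) in aged restricted, aged ad libitum and young ad libitum mice, 10 keratinocyte genes 405 ± 197, 75.5 ± 28.3 and 5.67 ± 4.50 CPM, and 7 red blood cell genes 307 ± 167, 71.0 ± 22.6 and 2.48 ± 4.30 CPM. Which cells the replication transcripts came from was not tested, and in bulk samples fewer cells of a type and less RNA per cell cannot be told apart. Aged restricted replicate 2 stood apart from its group on 1 measure: chi-square per degree of freedom over genes was 21.1 and 13.8 against the other aged restricted libraries, and between 5.65 and 9.84 in the other pairs of libraries of a group except aged restricted replicates 1 and 3, at 6.15. That measure grows with depth, and it used plain totals with the mitochondrially encoded genes included. Aged restricted replicate 2 had the lowest mitochondrial share, 23.5%, and the highest total, and replicate 1 had the highest share, 45.7%.

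None of the 38 tested genes changed by age or by restriction at an adjusted p of 0.05 in edgeR's quasi-likelihood test. In aged against young ad libitum mice, 0 of 38 were called, where 0.289% of all tested genes were, and 1 of 38 (Cdt1, lower) had an unadjusted p under 0.05, where 10.4% of all genes had. In aged restricted against aged ad libitum mice, 0 of 38 were called, where 0.944% of all genes were, and 1 of 38 (Mcm5, lower) had an unadjusted p under 0.05, where 11.7% had. In aged restricted against young ad libitum mice, 0 of 38 were called, where 1.94% of all genes were, and 1 of 38 (Rpa3, higher) had an unadjusted p under 0.05, where 11.6% had. DESeq2 called 0 genes of the set in each comparison. Of all 9009 tested genes it called 91 by age, 171 by restriction and 238 for aged restricted over young mice. In each comparison it had 1 gene of the set at an unadjusted p under 0.05, a share not computed for all genes. DESeq2 gave Gins1 no adjusted p by age.

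By age, 25 of 38 genes had a lower fitted level and 13 a higher one, with a median log2 fold change of −0.20 and a range of −1.52 to 0.81; among all tested genes 50.1% were lower and the median was 0.00. By restriction, 16 were lower and 22 higher (median 0.11, range −0.89 to 1.07), where 50.0% of all genes were lower. Between aged restricted and young ad libitum mice, 23 were lower and 15 higher (median −0.14, range −1.08 to 1.52), where 48.9% of all genes were lower. All 3 libraries of one group lay beyond all 3 of the other for 3 genes by age, against 16.0% of all genes: Rfc1 was higher, as were 7.40% of all genes, and Cdt1 and Cdc45 were lower, as were 8.58%. They did so for 3 genes by restriction, against 17.7% of all genes: Cdt1 and Mcm4 were higher, as were 9.26% of all genes, and Pola1 was lower, as were 8.47%. Between aged restricted and young mice they did so for 4 genes, against 19.1% of all genes: Rpa3 was higher, as were 9.82% of all genes, and Mcm5, Gins4 and Fen1 were lower, as were 9.26%.

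**Figure D2:**
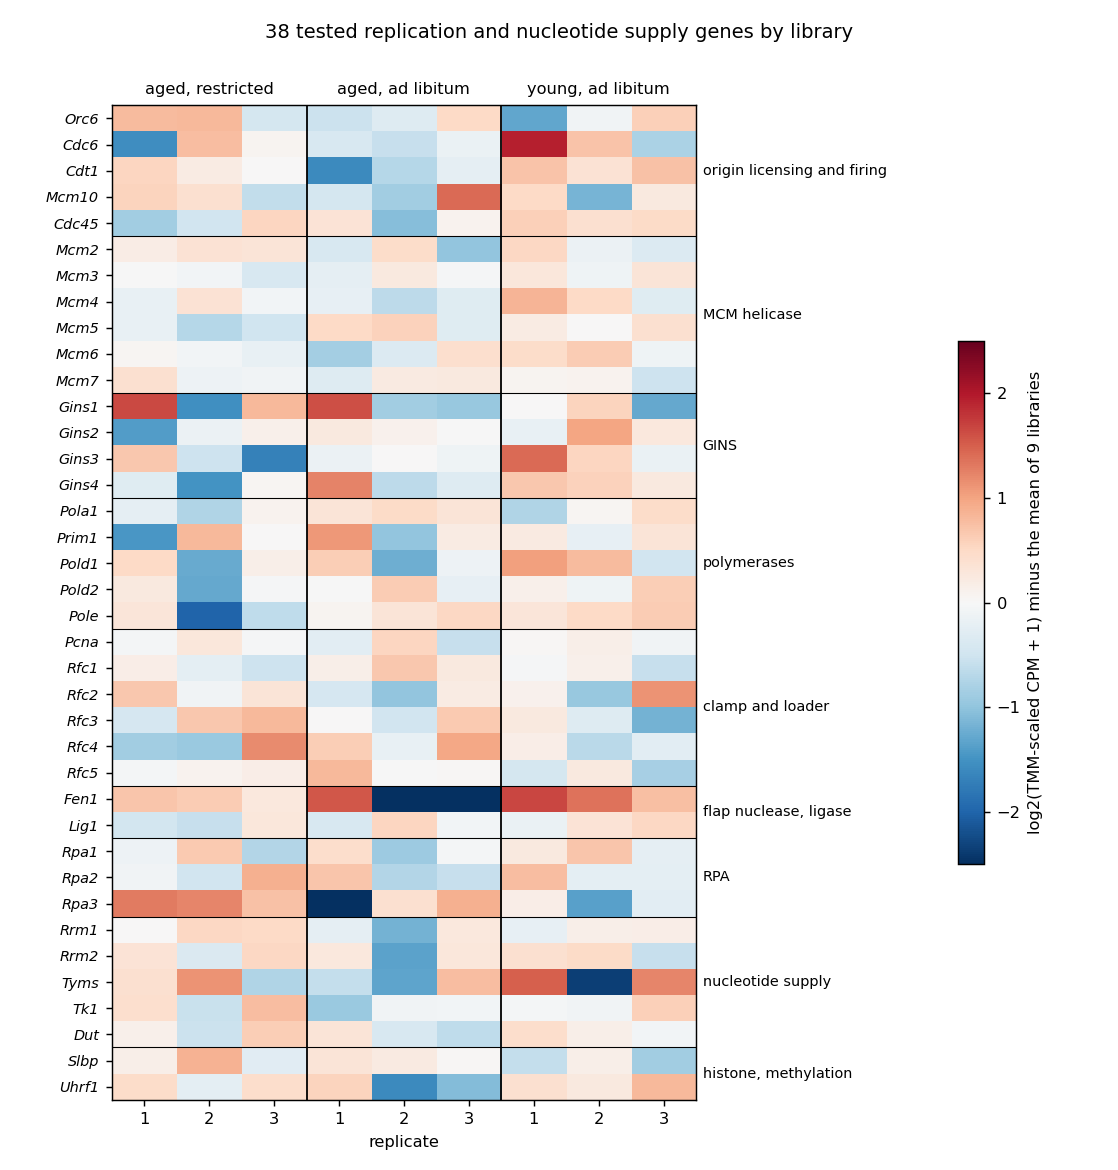
Level of each of the 38 tested genes in each library as log2(TMM-scaled CPM + 1) minus the mean of that gene over the 9 libraries, with colours ending at 2.5 in either direction. Columns are replicates 1 to 3 of aged restricted, aged ad libitum and young ad libitum mice, and rows are ordered by role. No group is one colour, and Fen1 in aged ad libitum replicates 2 and 3 and Rpa3 in aged ad libitum replicate 1 are the darkest low cells.

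A lack of calls does not show equal levels. The 95% interval of the fold change lay wholly within 2-fold for 6 of 38 genes by age (18.6% of all genes), for 7 of 38 by restriction (17.1%) and for 8 of 38 between aged restricted and young mice (19.1%). The within-group chi-square per degree of freedom, a measure of spread relative to read counting, had a median of 5.86 over the 38 genes. It ran from 1.37 for Cdt1, near what counting alone gives, to 18.6 for Lig1. Whether single genes varied more than counting gives was not tested. The biological coefficient of variation of the 38 genes had a median of 39.7% (range 23.9% to 79.3%). The single common value fitted over all tested genes was 40.5%, which is not a median of genes and so not a like measure.

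**Figure D3:**
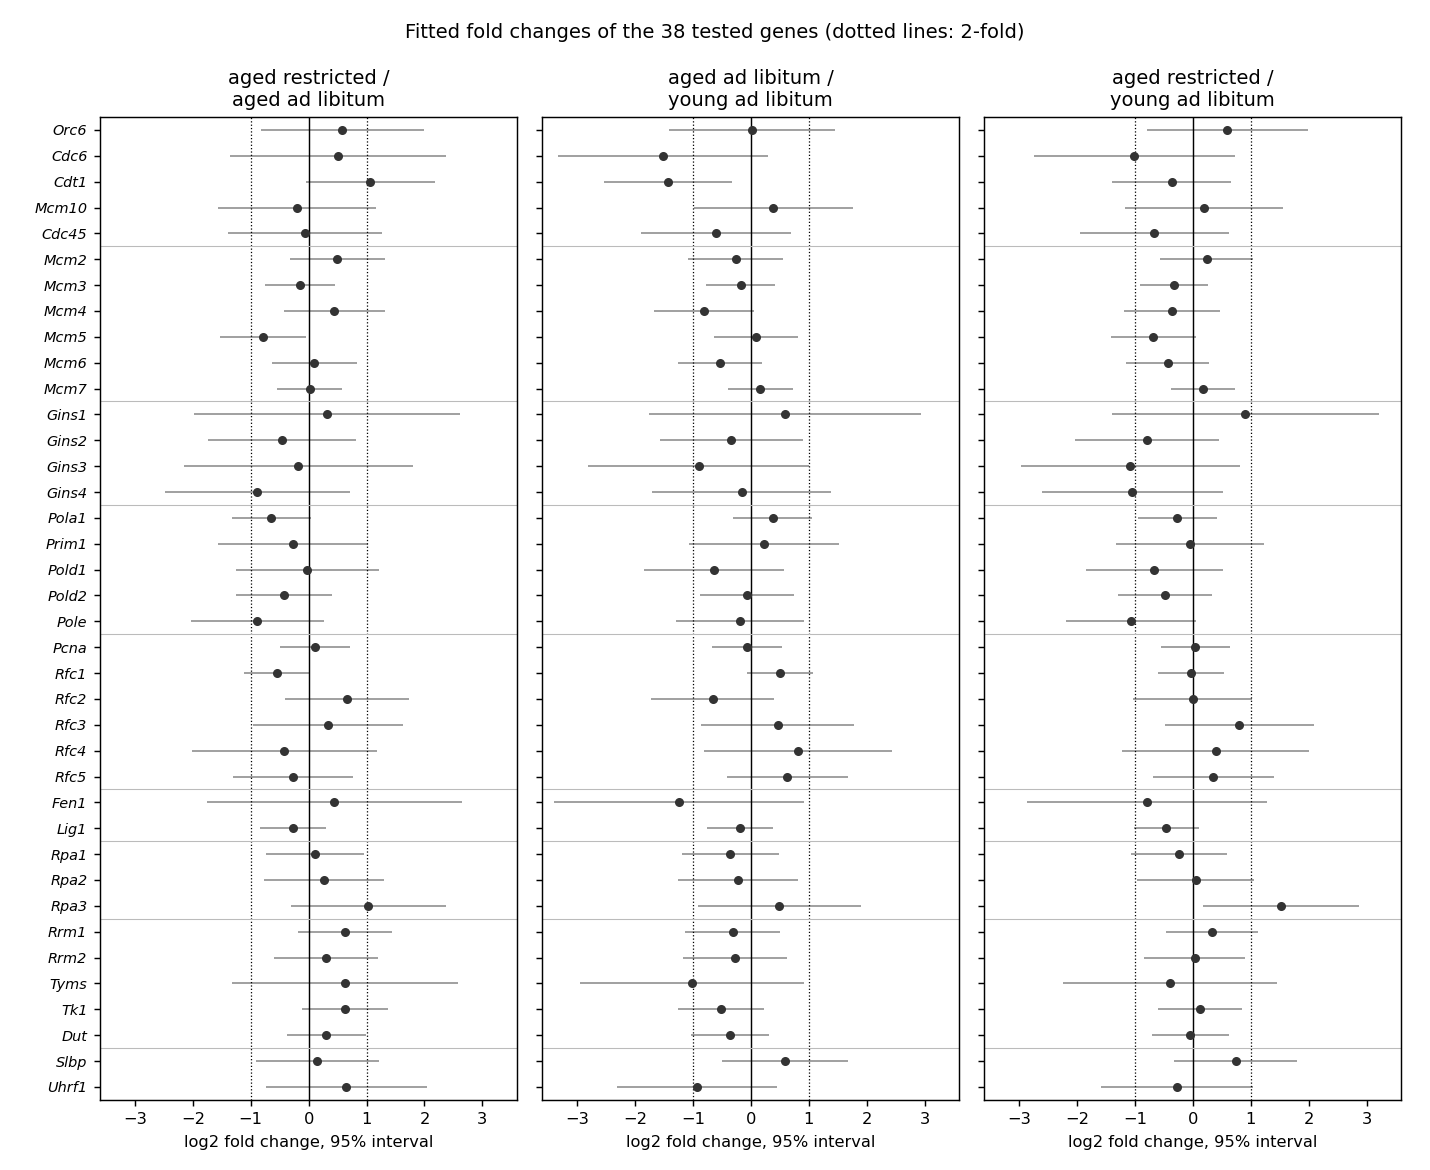
Fitted log2 fold change of each of the 38 tested genes (points) with its 95% interval (lines) for aged restricted over aged ad libitum, aged ad libitum over young ad libitum and aged restricted over young ad libitum mice, from left to right. Dotted vertical lines mark 2-fold. Intervals that leave out 0 are those of Mcm5 in the left panel, Cdt1 in the middle panel and Rpa3 in the right panel.

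The summed level of all 39 genes gives most weight to the most counted genes. As a share of the library total it was 1413, 1820 and 1709 CPM in aged restricted mice, 1753, 1557 and 1642 CPM in aged ad libitum mice and 1857, 1843 and 1627 CPM in young ad libitum mice, and the groups overlapped. On that scale the difference between the group means of the log2 sums was −0.10 by age, −0.01 by restriction and −0.11 for aged restricted over young mice. On the TMM scale the sums averaged 1651 ± 129, 1655 ± 46.7 and 1816 ± 65.8 CPM (SD, n = 3) in aged restricted, aged ad libitum and young ad libitum mice, and the 3 young libraries lay above the other 6. At the nearest, young ad libitum replicate 3 had 1745 CPM and aged restricted replicate 3 had 1741 CPM. The young libraries no longer lay above the rest without mitochondrially encoded genes in the total, where aged restricted replicate 3 had 2744 CPM and young ad libitum replicate 3 had 2678 CPM.

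**Figure D4:**
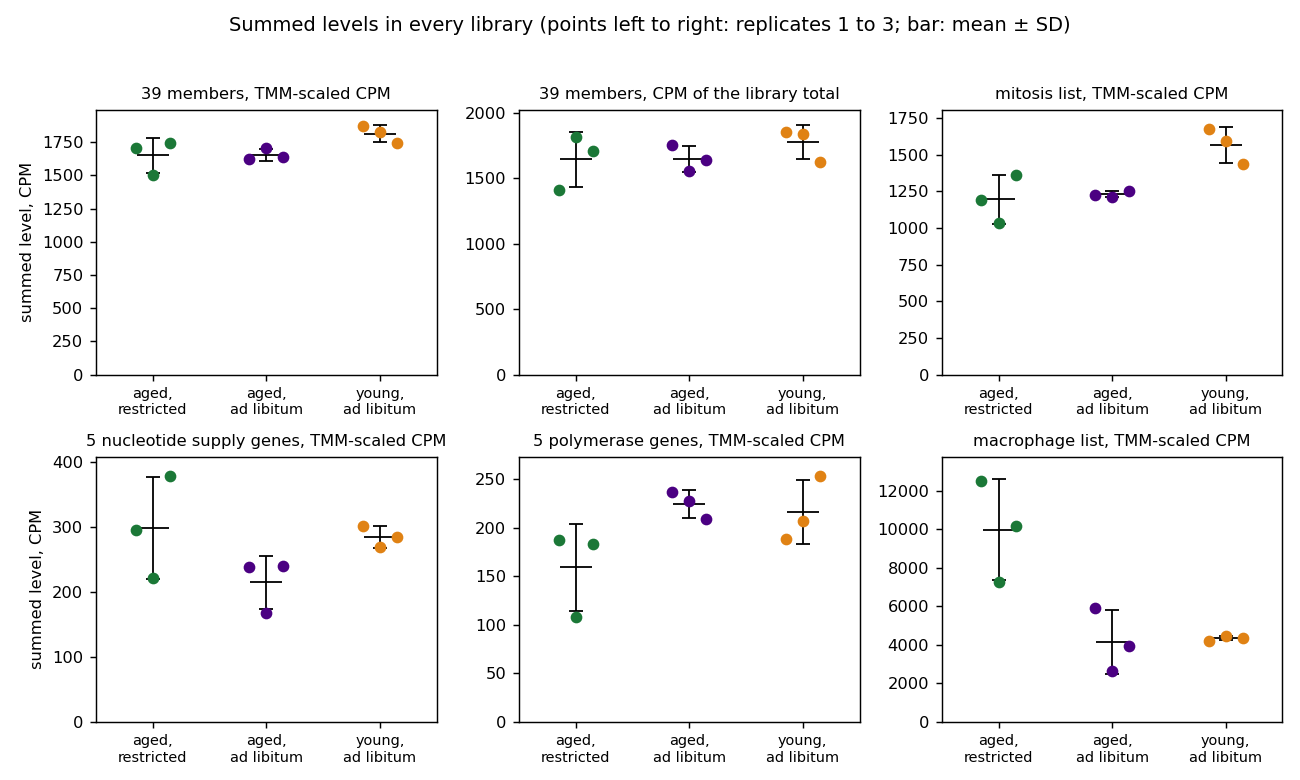
Summed CPM per library of the 39 genes on 2 scales, of 25 genes of mitosis, of the 5 nucleotide supply and the 5 polymerase genes, and of the 15 macrophage markers. The horizontal axis gives the group, points are replicates 1 to 3 from left to right and bars are mean ± SD. The macrophage sum is higher in all 3 aged restricted libraries than in the other 6, while the sums of the replication genes overlap in at least 1 pair of groups in every panel.

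Origin licensing and firing held the gene with the smallest p-value by age. Cdt1, which brings the Mcm ring to origins, had 29.9, 23.6 and 20.5 CPM in aged restricted mice, 6.10, 12.1 and 17.2 CPM in aged ad libitum mice and 33.9, 26.6 and 34.5 CPM in young ad libitum mice. The aged ad libitum libraries were the lowest of the 9, below every library of both other groups. The log2 fold change of Cdt1 by age was −1.43 ± 0.54 (SE; 95% interval −2.53 to −0.33), with an unadjusted p of 0.0129 and an adjusted p of 0.299 in edgeR. By restriction it was 1.07 ± 0.54 (−0.05 to 2.18, adjusted p = 0.449) and for aged restricted over young mice −0.36 (−1.39 to 0.66, adjusted p = 0.877). These values rest on 86, 29 and 113 counts in all in aged restricted, aged ad libitum and young ad libitum mice.

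Cdc6, the loading factor that works with Cdt1, had 2.21, 15.1 and 8.89 CPM in aged restricted mice, 6.10, 5.36 and 7.38 CPM in aged ad libitum mice and 35.5, 14.5 and 4.42 CPM in young ad libitum mice. The groups overlapped, since young ad libitum replicate 3 was below all 3 aged ad libitum libraries. Its log2 fold change by age was −1.52, with an interval of −3.34 to 0.31, and was −0.60 without young ad libitum replicate 1, the highest of the 9 libraries. Cdc45, part of the active helicase, averaged 13.5 ± 7.69, 14.0 ± 6.54 and 21.5 ± 1.52 CPM (SD, n = 3) in aged restricted, aged ad libitum and young ad libitum mice, and its age difference of −0.60 had an interval of −1.90 to 0.70. Orc6, an origin recognition subunit, and Mcm10, which acts at the step from loading to unwinding, had log2 fold changes by age of 0.02 and 0.39.

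The 6 MCM genes encode the ring that unwinds DNA at the fork, and 3 of them had intervals within 2-fold by age and 3 by restriction. Mcm7 had 169, 117 and 121 CPM in aged restricted mice, 102, 149 and 152 CPM in aged ad libitum mice and 135, 135 and 89.4 CPM in young ad libitum mice, and no group stood apart. Its log2 fold change was 0.16 by age (−0.40 to 0.72) and 0.02 by restriction (−0.55 to 0.58), so a 2-fold difference lay outside both intervals. That of Mcm3 was −0.17 by age (−0.77 to 0.43) and −0.15 by restriction (−0.76 to 0.45), again within 2-fold.

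Mcm5 had the smallest p-value by restriction. It had 45.4, 31.5 and 36.5 CPM in aged restricted mice, 74.3, 77.8 and 41.8 CPM in aged ad libitum mice and 60.3, 52.3 and 69.0 CPM in young ad libitum mice. The aged restricted libraries were below all young ones and overlapped aged ad libitum replicate 3. The log2 fold change by restriction was −0.78 ± 0.36 (SE; −1.52 to −0.04), with an unadjusted p of 0.0400 and an adjusted p of 0.402 in edgeR, and for aged restricted over young mice it was −0.69 (adjusted p = 0.470). By age it was 0.09 (−0.63 to 0.82).

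The fitted restriction differences of Mcm2 and Mcm4 were positive, opposite in sign to that of Mcm5. Mcm4 had 32.1, 47.2 and 34.7 CPM in aged restricted mice, 31.5, 22.8 and 29.5 CPM in aged ad libitum mice and 66.1, 51.5 and 29.2 CPM in young ad libitum mice. All aged restricted libraries were above all aged ad libitum ones, the nearest by 32.1 to 31.5 CPM, and the restriction difference was 0.45 (−0.43 to 1.32, adjusted p = 0.765 in edgeR). Mcm6 had 65.3, 59.7 and 55.1 CPM in aged restricted mice, 34.6, 49.6 and 84.8 CPM in aged ad libitum mice and 86.8, 98.3 and 58.4 CPM in young ad libitum mice, so aged ad libitum mice spanned all of the aged restricted values and overlapped the young ones. Mcm2 averaged 58.3 ± 3.57, 41.6 ± 21.8 and 49.5 ± 16.8 CPM (SD, n = 3) in aged restricted, aged ad libitum and young ad libitum mice. Whether the subunits differed from one another in their response was not tested.

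The GINS genes, whose 4 products complete the helicase, were among the least counted, with 75 to 172 counts over the 9 libraries. Gins4 had 8.86, 3.28 and 11.6 CPM in aged restricted mice, 27.5, 6.70 and 8.61 CPM in aged ad libitum mice and 18.2, 16.9 and 13.3 CPM in young ad libitum mice. Its aged restricted libraries were below its young ones, with a log2 fold change of −1.04 (−2.61 to 0.53, adjusted p = 0.682 in edgeR), or −0.65 without aged restricted replicate 2. Gins2 had 5.54, 14.4 and 17.8 CPM in aged restricted mice, 19.3, 17.4 and 16.0 CPM in aged ad libitum mice and 14.1, 33.0 and 19.5 CPM in young ad libitum mice, with young ad libitum replicate 2 the highest. Gins1 had the widest interval of the set by age, −1.76 to 2.94.

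All 5 polymerase genes had a negative fitted restriction difference, with a median log2 fold change of −0.43 and a range of −0.88 to −0.03, and 0 of 5 passed the test. Pola1, the catalytic subunit of polymerase alpha, had 65.3, 44.6 and 80.9 CPM in aged restricted mice, 95.6, 106 and 95.9 CPM in aged ad libitum mice and 44.6, 78.9 and 105 CPM in young ad libitum mice. The aged restricted libraries lay below all aged ad libitum ones, while the young libraries overlapped both groups. Its restriction difference was −0.64 ± 0.33 (SE; −1.33 to 0.04, adjusted p = 0.459 in edgeR). Pole, the catalytic subunit of polymerase epsilon, had 26.6, 4.59 and 13.3 CPM in aged restricted mice, 22.4, 26.8 and 30.7 CPM in aged ad libitum mice and 26.5, 30.6 and 33.6 CPM in young ad libitum mice. Aged restricted replicate 2 was the lowest of the 9 libraries, and the restriction difference of Pole was −0.88 with it and −0.42 without it.

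Aged restricted replicate 2 was also the lowest of the 9 libraries for Pold1 and Pold2, subunits of polymerase delta, at 7.87 and 20.3 CPM, while Prim1, the catalytic primase subunit, had its second highest level there, at 30.2 CPM. The 5 genes summed to 187, 108 and 183 CPM in aged restricted mice, 237, 228 and 209 CPM in aged ad libitum mice and 188, 207 and 253 CPM in young ad libitum mice. The aged restricted sums lay below those of aged ad libitum mice. Of the 5 genes, 4 were lower without aged restricted replicate 1 or 2 and 3 were lower without aged ad libitum replicate 1. By age, 3 of the 5 polymerase genes were lower and 2 higher, with a median of −0.06.

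The clamp and its loader gave no shared direction by restriction, with 3 of 6 genes higher and 3 lower. Pcna, the clamp, averaged 110.4 ± 14.7, 103 ± 42.9 and 108 ± 8.44 CPM (SD, n = 3) in aged restricted, aged ad libitum and young ad libitum mice. Its log2 fold change was −0.07 by age (−0.67 to 0.54) and 0.11 by restriction (−0.49 to 0.71), so neither interval held a 2-fold difference. Rfc1, the large subunit of the loader, had 139.5, 105 and 86.3 CPM in aged restricted mice, 137, 198 and 146 CPM in aged ad libitum mice and 122, 134 and 82.3 CPM in young ad libitum mice. Every aged ad libitum library was above every young one, by 137 against 134 CPM at the nearest, and the age difference was 0.51 ± 0.28 (SE; −0.06 to 1.07, adjusted p = 0.554 in edgeR). The restriction difference of Rfc1 was −0.54 (−1.11 to 0.02, adjusted p = 0.451). By age, 4 of the 6 clamp and loader genes were higher, with a median of 0.49, and 0 of 6 passed the test.

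**Figure D5:**
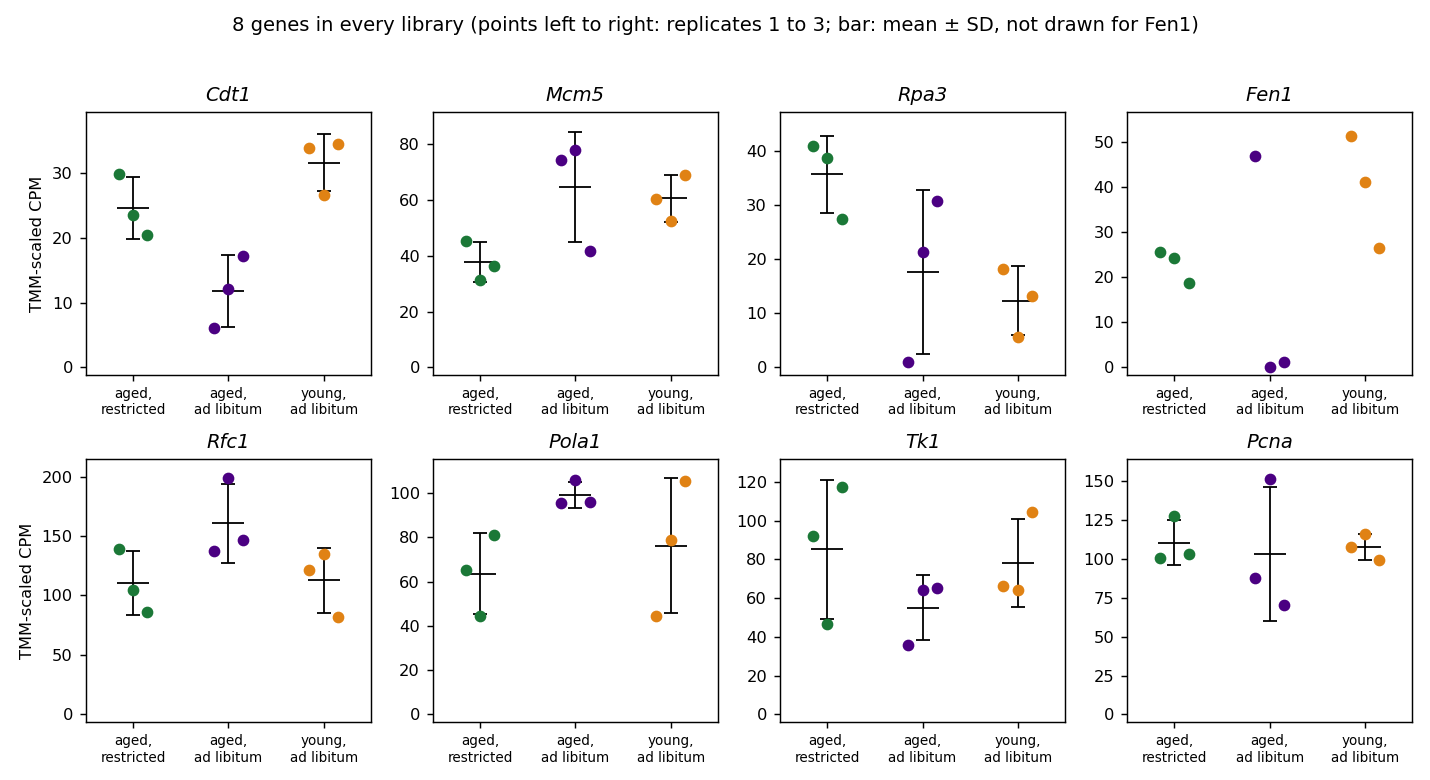
TMM-scaled CPM of 8 genes in each library, with replicates 1 to 3 from left to right within aged restricted, aged ad libitum and young ad libitum mice; bars are mean ± SD and are left out for Fen1. Cdt1 is lowest in aged ad libitum mice, Fen1 is split within that group at 46.8, 0 and 1.23 CPM, and Pcna overlaps in all 3 groups.

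Fen1, the nuclease that removes flaps between lagging strand fragments, split the aged ad libitum group, and it is described at length because of that split, seen in its values. It had 23, 37 and 21 counts in aged restricted mice, 46, 0 and 1 counts in aged ad libitum mice and 62, 51 and 30 counts in young ad libitum mice. Aged ad libitum replicate 1 was in the range of the young libraries, while replicates 2 and 3 were at or under the floor of 3 counts, which in replicate 2 is 4.02 CPM. With all libraries, the log2 fold change by age was −1.24 (−3.39 to 0.91, adjusted p = 0.734 in edgeR) and that by restriction 0.44 (−1.75 to 2.64, adjusted p = 0.917). Without aged ad libitum replicate 1, Fen1 was called in both comparisons, with adjusted p-values of 0.00178 by age and 0.00600 by restriction.

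The 2 remaining libraries then held 1 count of Fen1, against 143 in young mice, a ratio of levels of 0.0161 (exact 95% counting interval 0.000404 to 0.0910). The 81 counts in aged restricted mice gave a ratio of 35.6 over the same 2 libraries (6.20 to 1422). Choosing which library to leave out after seeing its value is not a test, and with all 3 libraries Fen1 did not differ beyond the spread. In the annotation the 3′ end of Fen1 overlaps Gm10143 on the opposite strand. Whether strand was used in counting is not given in the sources used here, so reads of the pair cannot be told apart.

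Lig1, the ligase that seals the fragments, was the most counted gene of the set, at 1793 counts. It had 131, 121 and 221 CPM in aged restricted mice, 136, 263 and 173 CPM in aged ad libitum mice and 161, 229 and 258 CPM in young ad libitum mice, and every group overlapped the others. Lig1 varied most between libraries of a group relative to read counting, a measure that grows with the number of counts. Its biological coefficient of variation was 25.7%, below the median of 39.7% of the set. The differences of Lig1 were −0.18 by age (−0.75 to 0.39), −0.27 by restriction (−0.85 to 0.30) and −0.46 for aged restricted over young mice (−1.02 to 0.11).

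The 3 subunits of RPA, which coats single-stranded DNA, work as one complex. Rpa3, the smallest subunit, had 41.0, 38.7 and 27.6 CPM in aged restricted mice, 1.02, 21.5 and 30.7 CPM in aged ad libitum mice and 18.2, 5.64 and 13.3 CPM in young ad libitum mice. All aged restricted libraries were above all young ones, and aged ad libitum mice overlapped both groups, with 1 count in replicate 1. For aged restricted over young mice, the log2 fold change of Rpa3 was 1.52 ± 0.65 (SE; 0.18 to 2.87), with an unadjusted p of 0.0280 and an adjusted p of 0.341 in edgeR. Rpa1, the large subunit, had 46.5, 80.7 and 30.2 CPM in aged restricted mice, 69.2, 26.8 and 49.2 CPM in aged ad libitum mice and 60.3, 83.0 and 43.3 CPM in young ad libitum mice. The groups of Rpa1 overlapped throughout, with a difference of −0.23 (−1.06 to 0.59) between aged restricted and young mice, and that of Rpa2 was 0.05 (−0.97 to 1.06). Whether Rpa3 differed from Rpa1 and Rpa2 was not tested.

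All 5 nucleotide supply genes had a lower fitted level by age (median log2 fold change −0.35, range −1.01 to −0.27) and a higher one by restriction (median 0.62, range 0.30 to 0.63), and 0 of 5 passed either test. Both counts use the same aged ad libitum libraries. The 5 genes summed to 296, 221 and 379 CPM in aged restricted mice, 238, 168 and 239.8 CPM in aged ad libitum mice and 303, 269 and 285 CPM in young ad libitum mice. The aged ad libitum sums lay below all young sums, while aged restricted replicate 2 fell among the aged ad libitum libraries. The counts became 4 of 5 in both comparisons without aged ad libitum replicate 2, and 4 of 5 by restriction without aged restricted replicate 3.

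Tk1, which salvages thymidine, had 91.9, 46.6 and 117 CPM in aged restricted mice, 35.6, 64.4 and 65.2 CPM in aged ad libitum mice and 66.1, 64.4 and 104 CPM in young ad libitum mice. Its differences were −0.51 ± 0.36 by age (SE; −1.26 to 0.23, adjusted p = 0.681 in edgeR) and 0.63 ± 0.36 by restriction (−0.11 to 1.38, adjusted p = 0.530). Rrm1, the large subunit of ribonucleotide reductase, had 44.3, 63.0 and 62.3 CPM in aged restricted mice, 37.6, 18.8 and 52.9 CPM in aged ad libitum mice and 38.0, 48.3 and 49.5 CPM in young ad libitum mice. Aged ad libitum replicate 3 was above all young libraries of Rrm1, so the groups overlapped.

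Dut, the dUTPase that keeps uracil out of DNA, had 94.1, 59.7 and 133 CPM in aged restricted mice, 109, 65.7 and 55.3 CPM in aged ad libitum mice and 117, 95.8 and 82.3 CPM in young ad libitum mice. Rrm2, the small subunit of the reductase, averaged 49.5 ± 14.9, 39.5 ± 20.3 and 48.0 ± 17.2 CPM (SD, n = 3) in aged restricted, aged ad libitum and young ad libitum mice. Dut and Rrm2 overlapped in all 3 groups. Tyms, thymidylate synthase, had 117 counts in all, and its age difference of −1.01 had an interval of −2.94 to 0.91. It ran from −1.93 without aged ad libitum replicate 3 to −0.49 without young ad libitum replicate 1.

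Slbp, which binds the stem-loop of histone mRNAs, had 24.4, 40.7 and 17.8 CPM in aged restricted mice, 27.5, 25.5 and 22.1 CPM in aged ad libitum mice and 14.1, 24.2 and 11.5 CPM in young ad libitum mice. Its difference for aged restricted over young mice was 0.74 (−0.32 to 1.80, adjusted p = 0.658 in edgeR), or 0.33 without aged restricted replicate 2. Uhrf1, which guides maintenance methylation behind the fork, averaged 17.1 ± 4.59, 10.5 ± 9.46 and 20.5 ± 4.56 CPM (SD, n = 3) in aged restricted, aged ad libitum and young ad libitum mice. For Uhrf1, aged ad libitum replicates 2 and 3 were the lowest of the 9 libraries, at 4.02 and 6.15 CPM, and replicate 1 was at 21.4 CPM.

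On the TMM scale, aged restricted replicate 2 was the lowest of the 9 libraries for 9 of 38 genes, against 10.6% of all tested genes. Among them were Pold1, Pold2 and Pole. The place of this library depends on the scaling. Its sum of the 39 genes was the lowest of the 9 on the TMM scale, at 1503 CPM. As a share of the library total it was the highest of its group, at 1820 CPM. Aged ad libitum replicate 2 was the lowest for 9 of 38, against 18.1% of all genes, and the highest for 6 of 38, against 15.6%. Young ad libitum replicate 1 was the highest for 8 of 38, against 11.2%. The 10 fibroblast genes summed to 2125 CPM in aged restricted replicate 2 and to between 709 and 1580 CPM in the other libraries, and its keratinocyte sum of 629 CPM was also the highest of the 9. The part of these cells in the values was not tested.

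Other genes of the same processes gave few calls, in lists too short to yield many at the shares over all tested genes. In edgeR those shares were 0.289% by age, 0.944% by restriction and 1.94% for aged restricted over young mice. At an unadjusted p under 0.05 in edgeR they were 10.4%, 11.7% and 11.6%. In a further 36 tested replisome genes (other origin, polymerase and fork proteins), 15 of replication-coupled chromatin, 25 of G1/S control and 25 of mitosis, edgeR called 0 in any of the 3 comparisons, with 0 to 7 genes of a list at an unadjusted p under 0.05. The most were 7 of 36 replisome genes by restriction, then 5 of 25 of G1/S control and 5 of 25 of mitosis for aged restricted over young mice. The fewest were 0 of 25 of G1/S control by restriction and 0 of 15 of replication-coupled chromatin for aged restricted over young mice. In these lists DESeq2 called 1 gene by age, H2az1, and 1 by restriction, Cenpe. Over all 9009 tested genes, DESeq2 called 91 by age and 171 by restriction. Among 36 other genes of nucleotide synthesis, edgeR called 1, by restriction. Mthfd2, a mitochondrial enzyme of the folate pathway, fell to 54.8 ± 7.44 CPM in aged restricted mice, against 132 ± 42.8 CPM in aged ad libitum mice (SD, n = 3; log2 fold change −1.26 ± 0.31, adjusted p = 0.0457 in edgeR). Samhd1, which breaks down deoxynucleotides and is abundant in macrophages, averaged 202 ± 48.6 CPM in aged restricted mice and 98.5 ± 26.2 CPM in aged ad libitum mice. Its log2 fold change by restriction was 1.04 (adjusted p = 0.0567 in edgeR), and DESeq2 called it. The macrophage sum was also higher in all aged restricted libraries, and any part of macrophages in the Samhd1 difference was not tested.

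Genes of mitosis had 17 of 25 lower and 8 higher by age (median −0.39), and 10 lower and 15 higher by restriction (median 0.17). Their sum averaged 1196 ± 165, 1232 ± 18.6 and 1567 ± 122 CPM (SD, n = 3) in aged restricted, aged ad libitum and young ad libitum mice, with all young libraries above the other 6 on this scale. Cdk1, the mitotic kinase, averaged 79.6 ± 28.0 CPM in aged ad libitum mice and 165 ± 58.8 CPM in young ad libitum mice, with a log2 fold change of −1.05 ± 0.32 (SE; adjusted p = 0.180 in edgeR). H2az1, a histone variant that is abundant in dividing cells, averaged 351 ± 38.1 CPM in aged ad libitum mice and 582 ± 71.8 CPM in young ad libitum mice (−0.73, adjusted p = 0.0850 in edgeR). Cenpe, a kinesin of the kinetochore, averaged 88.2 ± 16.0 CPM in aged restricted mice and 172 ± 24.8 CPM in aged ad libitum mice (−0.96, adjusted p = 0.0660 in edgeR). The other replisome genes leaned the other way, with 23 of 36 higher by age (median 0.24) and 25 of 36 lower by restriction (median −0.24).

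Some of the values could hold reads of a second locus. The last 500 bases of 10 of the 39 transcripts share at least 75 bases at 97% identity or more with another transcript, which for Mcm4, Mcm7, Rfc2, Rrm2, Slbp and Tyms lies elsewhere in the genome. The 3′ ends of Mcm7, Gins2, Rfc4, Rfc5 and Fen1 overlap an exon of a gene on the opposite strand (Cops6, Gse1, Eif4a2, Wsb2 and Gm10143). Counts of these 10 genes are therefore uncertain.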

How the data were processed

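The QuantSeq 3′ kit (FWD) was used, whose reads start near the poly(A) tail, with single reads of 75 bp, per the labels' protocols. The deposited values are raw counts of reads per gene, made by the authors with Trim Galore, STAR and featureCounts on GRCm38 (mm10), per the submitters' processing notes. Versions and the use of strand, multiple matches or molecular identifiers are not given in the sources used here, so intervals on counts cover counting error only. Counts of a 3′ method do not scale with length, and levels were not compared between genes. Only 536 of the 25268 identifiers shared with GENCODE M21 (2.12%), which annotates GRCm38, had equal coordinates, so the build of the table's coordinates is not established and none of them are printed.

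The tests used edgeR 4.0.16 (R 4.3.3): filterByExpr by group (minimum count 10), library totals over the tested genes, TMM, and robust quasi-likelihood F-tests in a one-way model of the 9 libraries (6 residual degrees of freedom), with Benjamini-Hochberg adjustment over 9009 genes and a threshold of 0.05. Standard errors and 95% intervals came from the fitted weights and moderated dispersions. CPM are counts per 1e+06 on TMM-scaled totals. A group of low counts was set against a floor of 3 counts per library. No test was made over lists or sums. Library totals ran from 810662 to 1258575 counts. On the TMM-scaled totals, 1 count was worth 0.656 to 1.34 CPM. Alternatives were DESeq2 1.42.0, other scalings and filters, the 2 groups alone, a replicate block and leaving out each library; totals taken before the filter were added after seeing the data. The code was tested on simulated counts.

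The genes and lists were chosen with earlier results of these data known. Values in every library are given for genes among the 6 smallest p-values of a comparison and for the most counted gene of each role; from other lists, up to 4 genes with the smallest p-values could be named. Replicate numbers were not taken as pairs, since the labels state no shared source. Correlations of deviations from group means were −0.03 to 0.08 (median 0.05) between libraries of the same number and −0.08 to 0.05 (median −0.02) between those of different numbers. Whether libraries of the same number shared a source was not tested. Promoter windows are from RefSeq (GRCm38.p6); Pole, Gins1, Gins2, Gins4, Rfc2 and Mcm4 had no window.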

Additional observations from a re-analysis of the deposited data

How the results depend on the processing

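No gene of the set was called under any alternative with all libraries in the fit. Leaving out each library in turn gave 0 to 1 called genes of the set by age and by restriction (Fen1, without aged ad libitum replicate 1) and 0 for aged restricted over young mice, and no called value changed sign. The number of called genes over all genes moved more: leaving out each library gave 2 to 91 by age, 35 to 157 by restriction and 98 to 242 for aged restricted over young mice, against 26, 85 and 175 with all libraries. DESeq2 called 91 by age and 171 by restriction. Without a filter on low counts 126, 224 and 286 genes were called by age, by restriction and for aged restricted over young mice. The 2 groups alone gave 58 by age and 43 by restriction, and library totals without TMM gave 50 by restriction. With the replicate number as a replicate block, edgeR called 49 genes by age and 133 by restriction and 0 of the set; 7 of 9 libraries correlated best with their own number, which is a hint from the data and not the design. The cause of these shifts was not tested. Fitted signs were less stable than calls: over 18 alternatives 15, 19 and 14 of the 38 genes changed sign at least once by age, by restriction and for aged restricted over young mice. The genes had 34 to 1793 counts each, with 3 libraries a group. The 95% interval reached 2-fold for 32 of 38 tested genes by age, 31 by restriction and 30 for aged restricted over young mice. With all libraries, the fitted log2 fold changes of Cdt1 (−1.43), Cdc6 (−1.52), Fen1 (−1.24) and Tyms (−1.01) by age lay past 2-fold and were not called in edgeR.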
